A study of Mus musculus with 4 samples.

Results

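The genes described here run the calcium cycle of the sarcoplasmic reticulum (SR) of the heart muscle cell, together with 1 lncRNA gene annotated on the opposite strand of one of them. They were chosen by name, by a rule that uses no measured value, but with earlier results of these data known: Atp2a2, Pln, Sln, Ryr2, Trdn, Casq2, Hrc, Jph2, Slc8a1 and Gm47644, which are 10 of the 15746 genes listed. All 10 had values in all 4 libraries, and all 10 passed the filter on low values.

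The SR is the calcium store of the muscle cell. With each heartbeat calcium enters through L-type channels of the surface membrane and opens the ryanodine receptor, through which the SR releases its calcium. The pump SERCA2 then takes the calcium back into the SR, under the control of small membrane peptides, and the sodium-calcium exchanger carries the rest out of the cell. The SR lies close to the mitochondria of the heart muscle cell, and mRNAs of SR membrane proteins are translated on membrane-bound ribosomes.

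RNA was sequenced from the mitochondrial fraction (mitochondria, 2 libraries) and from the remaining tissue (rest, 2 libraries) of hearts of adult wild-type (WT) mice, to find RNAs that are present in heart mitochondria. No library carried a mutation or received a drug, and strain, age in weeks, sex, and whether animals were pooled are not given in the sources used here. The rest fraction was the low-speed pellet of the homogenate, and mitochondria were pelleted from its supernatant at higher speed and treated with digitonin and RNase A. The treatment and a change in the time of fragmentation are described for mitochondrial samples alone, so these steps and the fraction cannot be told apart.

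The values are read counts per gene divided by a size factor of each library and are called normalized counts. The spacing of low values showed that a read was worth 3.87 normalized counts in mitochondria 1 and 2.55 in mitochondria 2, and at most 1 in the rest libraries, where reads could not be resolved. The mitochondrial libraries held approximately 47400000 and 32100000 reads on genes, of which 97.6% and 93.5% lay on the mitochondrial chromosome, against 63.2% and 67.5% of the normalized counts in rest 1 and rest 2. All 11 markers of heart muscle cells were detected in all libraries. Myh6, the main myosin of the adult mouse heart, had 174838, 128576, 184487 and 161461 normalized counts in mitochondria 1, mitochondria 2, rest 1 and rest 2. Values are given in this order of libraries throughout. Fold changes are log2 of the normalized count plus 1, mitochondria minus rest, with their standard error (SE), and adjusted p-values are from limma over 12150 genes. Nothing says that the libraries came from separate animals, so the tests measure only the spread between these libraries.

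The smallest products of these genes are shown here because Pln and Gm47644 share sequence. The coding sequences of Pln (phospholamban, 52 codons before the stop) at chr10:53343864-53344022 on the plus strand of GRCm38 and of Sln (sarcolipin, 31 codons) at chr9:53853473-53853568 on the plus strand each lie in 1 exon of the annotation. Both peptides sit in the SR membrane and lower the calcium affinity of the pump. Capitals mark the start and stop codons.
Pln: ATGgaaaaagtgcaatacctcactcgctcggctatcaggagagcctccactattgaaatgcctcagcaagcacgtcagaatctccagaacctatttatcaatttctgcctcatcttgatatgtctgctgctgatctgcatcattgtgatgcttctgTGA
Sln: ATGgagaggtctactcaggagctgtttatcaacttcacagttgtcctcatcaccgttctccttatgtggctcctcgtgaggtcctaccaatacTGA
The lncRNA gene Gm47644 is annotated on the minus strand, and all 159 bases of the Pln coding sequence are exonic in both of its transcripts. Its RNA holds them as the reverse complement, with the complements of the Pln stop and start codons in capitals.
Gm47644: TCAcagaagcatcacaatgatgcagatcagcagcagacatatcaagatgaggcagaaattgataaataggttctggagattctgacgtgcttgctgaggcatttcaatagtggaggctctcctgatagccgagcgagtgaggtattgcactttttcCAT

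On the deposited scale the members lay on both sides. Of the 10 genes, 1 was called lower in mitochondria at an adjusted p under 0.05 (Gm47644), where 1.39% of all tested genes were called lower, and 0 were called higher by limma, where 2.16% of all tested genes were. At an unadjusted p under 0.05, 3 members (Pln, Trdn and Hrc) were higher and 3 (Atp2a2, Ryr2 and Gm47644) were lower, and over all genes tested 14.1% and 16.2% passed that limit in the same directions. Both mitochondrial values lay above both rest values in 3 members and below them in 4, near the 27.7% and 33.4% of all tested genes with such values. The median log2 fold change was -0.25 over the members and -0.14 over all tested genes.

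The direction of several members depended on the scaling of the libraries. With library totals as the scale, the median of all tested genes moved from -0.14 to -3.93, and with totals that leave out the mitochondrial chromosome it moved to -0.98. Pln, Trdn, Hrc and Jph2 then had negative log2 fold changes under the first of these scalings (from -3.64 to -3.01), and Pln and Jph2 also under the second (-0.27 and -0.52). The calls changed with it: by limma 10 members were called lower and 0 higher under the first, and 4 lower and 0 higher under the second. Of all 12150 tested genes, 12022 were called lower and 2 higher under the first, and 3819 lower and 129 higher under the second. Relative to the median of all tested genes, Pln, Trdn, Hrc and Jph2 stood above it under both scalings (by 0.29 to 1.09), and Atp2a2, Sln, Ryr2, Slc8a1 and Gm47644 stood below it (by -2.92 to -0.26), with Casq2 at -0.17 and -0.01. Directions in the following paragraphs are on the deposited scale and have this limit.

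**Figure D1:**
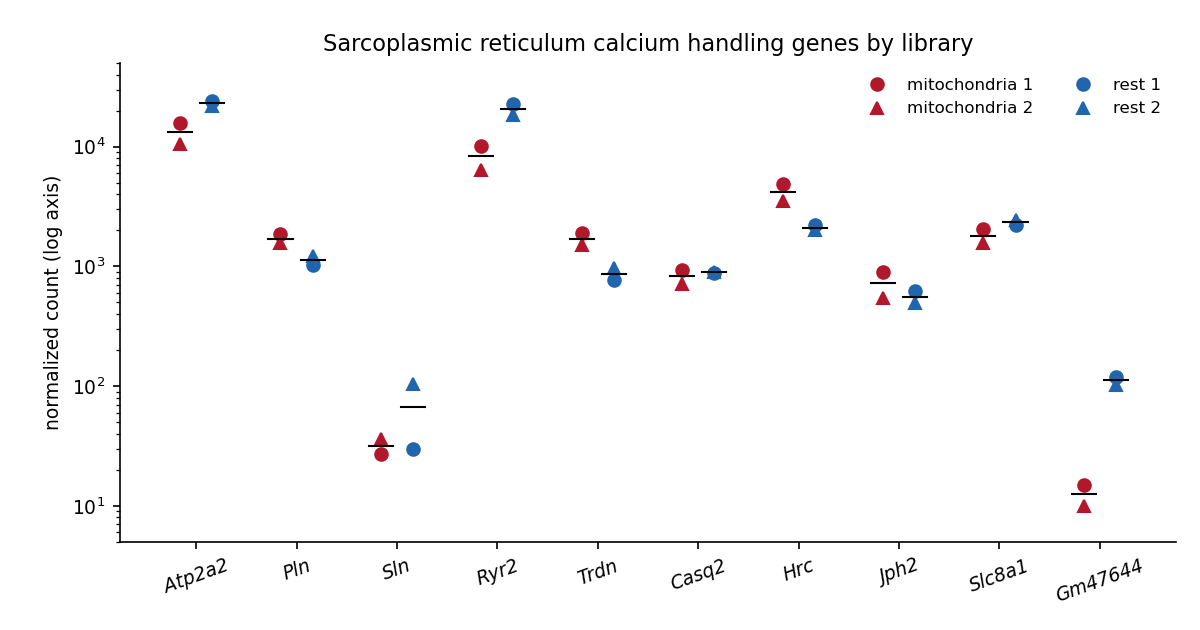
Normalized counts on a log axis of the 10 genes in the 4 libraries, with circles for replicate 1, triangles for replicate 2, red for mitochondria, blue for rest and a black line at the mean of 2 libraries. Ryr2 and Atp2a2 lie lower in both mitochondrial libraries than in both rest libraries and Pln, Trdn and Hrc higher (on the deposited scale; Pln, Trdn and Hrc turn negative when libraries are scaled to their totals), and Gm47644 shows the widest gap.

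Atp2a2 (ENSMUSG00000029467, chr5:122453513-122502225, minus strand) encodes SERCA2, the pump that fills the SR. It had 15794 and 10612 normalized counts in mitochondria and 24253 and 21853 in rest, or 13203 ± 3664 and 23053 ± 1697 (SD, n = 2 each). Both mitochondrial values were below both rest values, a 1.75-fold lower mean, but the log2 fold change of -0.83 (SE 0.304) was not past the threshold (adjusted p = 0.155). Pln (ENSMUSG00000038583, chr10:53337667-53345987, plus strand) encodes phospholamban, which inhibits SERCA2 until it is phosphorylated. It had 1847 and 1556 normalized counts in mitochondria and 1026 and 1228 in rest, or 1702 ± 206 and 1127 ± 143 (SD, n = 2 each). Both mitochondrial values of Pln were above both rest values as deposited, 1.51-fold on the means, and below them by -3.39 on the log2 scale after scaling to library totals. Its log2 fold change as deposited was 0.59 (SE 0.193, adjusted p = 0.129).

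Pump and inhibitor thus lay on different sides of the median of all genes, by -0.69 for Atp2a2 and 0.73 for Pln. The ratio of their values within a library does not depend on how libraries are scaled. Pln reached 11.7% and 14.7% of the Atp2a2 value in mitochondria and 4.23% and 5.62% in rest. The ratios of the fractions did not overlap, and the log2 ratio was 1.42 higher in mitochondria (-2.93 ± 0.23 against -4.36 ± 0.29, SD, n = 2 each), a 2.68-fold difference. For 2 values in each fraction the exact permutation p (two-sided) has a floor of 0.33. That floor was the value here and for the other 3 ratios tested, so none can pass the threshold before or after adjustment over the 4.

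Sln (ENSMUSG00000042045, chr9:53850164-53854560, plus strand) encodes sarcolipin, the pump inhibitor of atrial and skeletal muscle. It was the member with the lowest level of the protein-coding genes, with 27 and 36 normalized counts in mitochondria, which are 7 and 14 reads, and 30 and 104 in rest. The fractions overlapped, and rest 2 stood apart from the other libraries. The log2 fold change was -0.83 (SE 0.638, 95% interval -2.5 to 0.84, adjusted p = 0.425), and without rest 2 it was 0.05. The ratio of Sln to Pln was 1.46% and 2.31% in mitochondria and 2.92% and 8.47% in rest.

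All 7 atrial markers were higher in rest 2 than in rest 1, and 5 of 7 were higher in mitochondria 2 than in mitochondria 1. Their summed normalized counts were 391 and 1181 in mitochondria and 934 and 2737 in rest, and none was at 0 in any library. Nppa, the atrial natriuretic peptide, had 112, 431, 180 and 644 normalized counts and Myl7, the atrial regulatory myosin light chain, had 19, 173, 119 and 349. None of the 7 was called by limma, with 1 lower and 0 higher at an unadjusted p under 0.05. Their part in the Sln values was not tested. In such bulk fractions, fewer atrial cells and less RNA of these genes per cell cannot be told apart.

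Ryr2 (ENSMUSG00000021313, chr13:11553102-12106945, minus strand) encodes the cardiac ryanodine receptor, the release channel of the SR. It had 10159 and 6395 normalized counts in mitochondria and 22792 and 18549 in rest, or 8277 ± 2662 and 20670 ± 3000 (SD, n = 2 each). Both mitochondrial values lay below both rest values, 2.5-fold on the means. The log2 fold change of -1.35 (SE 0.322) missed the threshold (adjusted p = 0.0755), and it passed when only genes with a mean above 50 normalized counts were tested (adjusted p = 0.0319). With that filter 670 genes were called lower and 790 higher, beside 169 and 262 in the main test. Of the 12150 genes of the main test, 5556 had such a mean.

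Trdn (ENSMUSG00000019787, chr10:33080554-33476709, plus strand) encodes triadin, which ties the calcium buffer calsequestrin to the ryanodine receptor. It had 1906 and 1502 normalized counts in mitochondria and 771 and 968 in rest, or 1704 ± 286 and 870 ± 139 (SD, n = 2 each), 1.96-fold higher in mitochondria as deposited and lower by -3.01 on the log2 scale after scaling to library totals. The log2 fold change as deposited was 0.97 (SE 0.218, adjusted p = 0.0699, or 0.0353 among genes with a mean above 50). Among genes with such a mean, 790 were called higher. Hrc (ENSMUSG00000038239, chr7:45335290-45338974, plus strand) encodes the histidine-rich calcium binding protein of the SR lumen, which binds triadin and SERCA2. Its normalized counts were 4849 and 3513 in mitochondria and 2212 and 2009 in rest, or 4181 ± 945 and 2110 ± 144 (SD, n = 2 each). Hrc was 1.98-fold higher in mitochondria as deposited and lower by -3.02 on the log2 scale after scaling to library totals, and its log2 fold change as deposited was 0.97 (SE 0.228, adjusted p = 0.0745, or 0.0417 among genes with a mean above 50).

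Casq2 (ENSMUSG00000027861, chr3:102086415-102146514, plus strand) encodes cardiac calsequestrin, the main calcium buffer of the SR lumen. It had 937 and 714 normalized counts in mitochondria and 882 and 900 in rest, so the fractions overlapped. The log2 fold change was -0.12 (SE 0.198, 95% interval -0.64 to 0.4, adjusted p = 0.701), and the interval holds changes of either sign. Within a library, Casq2 reached 9.22% and 11.2% of the Ryr2 value in mitochondria and 3.87% and 4.85% in rest, again without overlap. The log2 ratio was 1.23 higher in mitochondria (-3.3 ± 0.2 against -4.53 ± 0.23, SD, n = 2 each), a 2.34-fold difference, with the p of 0.33 that this exact test can give at lowest.

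Jph2 (ENSMUSG00000017817, chr2:163336242-163397993, minus strand) encodes junctophilin 2, which holds the SR against the surface membrane. It had 891 and 548 normalized counts in mitochondria and 619 and 492 in rest, with overlapping fractions and a log2 fold change of 0.34 as deposited (SE 0.295, adjusted p = 0.473), of -0.01 without mitochondria 1 and of -3.64 after scaling to library totals. Slc8a1 (ENSMUSG00000054640, chr17:81373105-81738377, minus strand) encodes the sodium-calcium exchanger NCX1 of the surface membrane. It had 2049 and 1564 normalized counts in mitochondria and 2219 and 2444 in rest. Both mitochondrial values lay below both rest values, with a log2 fold change of -0.38 (SE 0.208, adjusted p = 0.285).

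**Figure D2:**
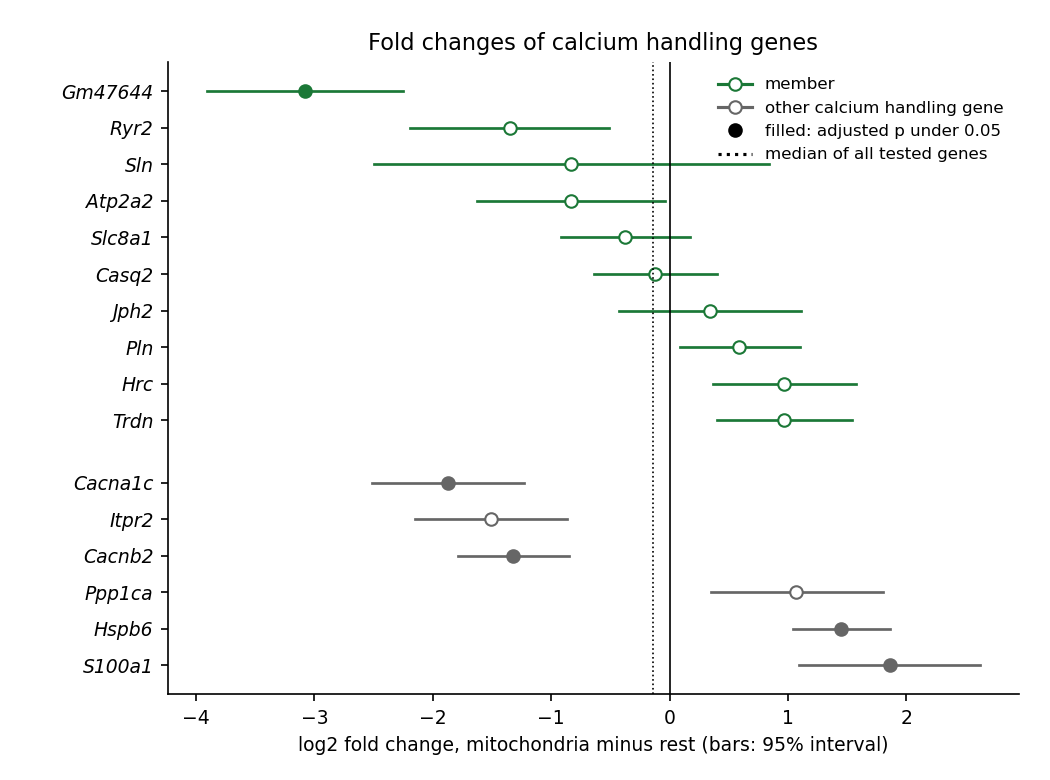
Log2 fold changes of mitochondria minus rest as deposited, with 95% intervals, for the 10 members (green) and 6 other calcium handling genes (grey). Filled points have an adjusted p under 0.05, and the dotted line marks the median of all tested genes at -0.14; Gm47644 is the member farthest from it, and positive values of members turn negative when libraries are scaled to their totals.

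Gm47644 (ENSMUSG00000112734, chr10:53337753-53345085, minus strand) had 15 and 10 normalized counts in mitochondria, which are approximately 4 reads in each library, and 120 and 103 in rest. The means were 12.5 ± 3.54 and 112 ± 12 (SD, n = 2 each), an 8.92-fold lower level in mitochondria, and all 5 scalings gave a negative value. The log2 fold change was -3.08 (SE 0.319, adjusted p = 0.0427), which was the only call among the members. The call sits close to the limits of these data: 3 reads equal 11.6 normalized counts in mitochondria 1 and 7.65 in mitochondria 2, and with a pseudocount of 0.1 the adjusted p was 0.0543. With any of the 4 libraries left out, the log2 fold change stayed between -3.35 and -2.81 and no gene of the table was called.

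The locus holds 3 genes. Of the 2759 annotated exon bases of Pln, 1785 (64.7%) are also exonic on the opposite strand, 1644 of them in Gm47644 and 141 in Cep85l. Of the exon bases of Gm47644, 60.7% are shared with Pln. Gm47644 also lies whole within a 28752-base intron of Cep85l at chr10:53319720-53348471, on the same strand as that gene, and the annotation calls it sense intronic. Cep85l, which encodes a centrosomal protein, had 136 and 105 normalized counts in mitochondria and 200 and 193 in rest, a log2 fold change of -0.71 (SE 0.214, adjusted p = 0.113). The study's methods name a stranded library kit, but the use of strand in counting is not given in the sources used here. The authors left out reads that overlap several genes, so without strand the reads in the shared bases would be missing from both Pln and Gm47644. The 1064 unshared exon bases of Gm47644 lie within introns of Pln. Without strand, reads of unspliced Pln RNA there would be counted for Gm47644 and could not be told apart from its own. Reads of unspliced Cep85l RNA cannot be told apart from those of Gm47644 in either case. Within a library Gm47644 reached 0.812% and 0.643% of the Pln value in mitochondria and 11.7% and 8.39% in rest, and the log2 ratio differed by -3.67 (-7 ± 0.21 against -3.32 ± 0.34, SD, n = 2 each, exact permutation p = 0.33, the lowest possible).

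**Figure D3:**
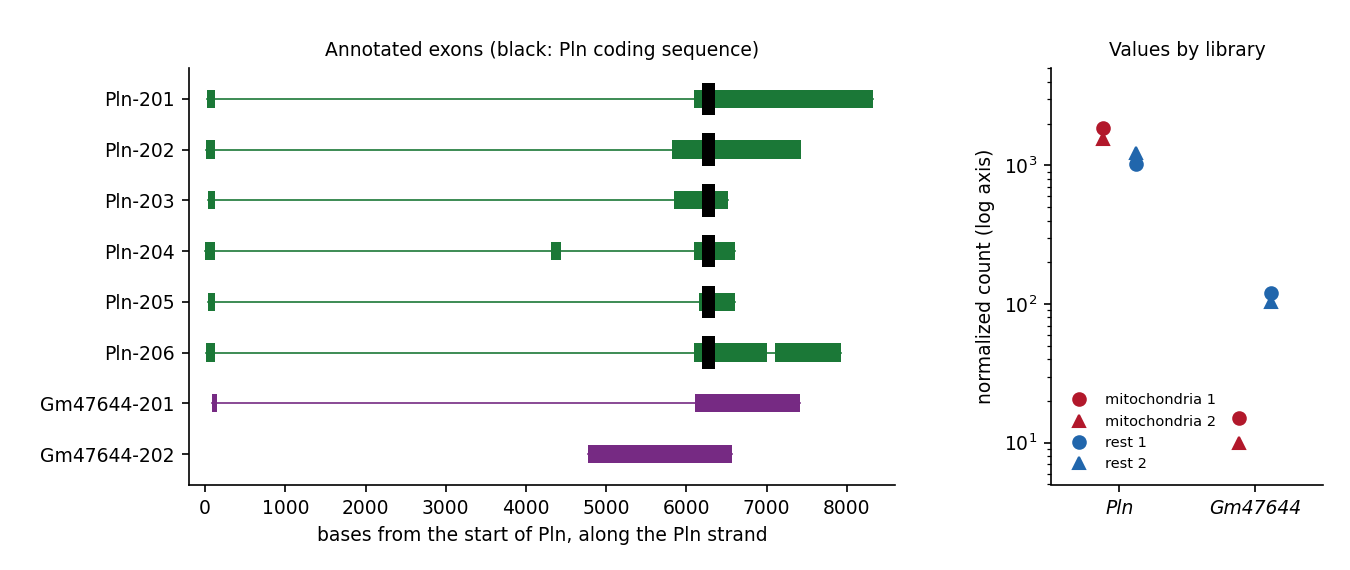
Left, annotated exons of the 6 Pln transcripts (green, coding sequence in black) and the 2 Gm47644 transcripts (purple), by distance in bases from the start of Pln. Right, normalized counts of both genes on a log axis in the 4 libraries: Pln lies between 1026 and 1847 in all of them, while Gm47644 has 15 and 10 in mitochondria and 120 and 103 in rest.

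Other genes are annotated over the members' loci, and they were looked at after the values of Gm47644 had been seen. Apart from Cep85l and the members, 13 such genes were in the table, none annotated as protein-coding and 6 of them in the class TEC, whose coding status the annotation does not settle. Of these, 9 passed the filter on low values, some of them only through the rest libraries. Both mitochondrial values lay below both rest values in all 9, beside 33.4% of all tested genes. For genes that passed only through rest, such as Gm47845 (0, 0, 17 and 12 normalized counts), the lower side follows from the filter. The 2 shares are therefore not on a par. Among all 13 genes, tested or not, 12 lay lower, and the fractions overlapped in Gm47844. The count of 12 includes genes near the level of 1 read, such as Gm47831 (0, 0, 3 and 5 normalized counts) and Gm47842 (0, 0, 4 and 4), for which the depth cannot show a difference. Gm43361, on the opposite strand of Atp2a2 with 83 shared exon bases, had 15 and 5 normalized counts in mitochondria and 313 and 270 in rest (log2 fold change -4.9, adjusted p = 0.0427). Gm43359 and Gm43360, which lie in introns of Atp2a2 on its own strand, had 15 and 3 against 276 and 198 and 8 and 15 against 117 and 109 normalized counts. In mitochondria these are few reads: 4 and 2 for Gm43361, 4 and 1 for Gm43359, and 2 and 6 for Gm43360. Gm47493, within Ryr2 on its strand, had 8 and 10 in mitochondria (2 and 4 reads) and 200 and 100 in rest. The antisense gene D830005E20Rik, within Trdn, had 132 and 92 in mitochondria and 355 and 280 in rest (log2 fold change -1.51, SE 0.264, adjusted p = 0.0549). Beside these stand the log2 fold changes of Atp2a2, Ryr2 and Trdn themselves, -0.83, -1.35 and 0.97 as deposited, of which that of Ryr2 is close in size to that of D830005E20Rik. Reads of unspliced host RNA and reads of a gene in an intron on the same strand cannot be told apart. If strand was not used in counting, this holds for genes on the opposite strand as well. The 4 nuclear lncRNAs listed as a reference were also on the negative side, with a median log2 fold change of -2.11. By limma 0 of these were called and 3 were lower at an unadjusted p under 0.05, while the fractions overlapped in Meg3 (log2 fold change -0.57, adjusted p = 0.673). The relation of these lncRNAs to the values above was not tested.

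**Figure D4:**
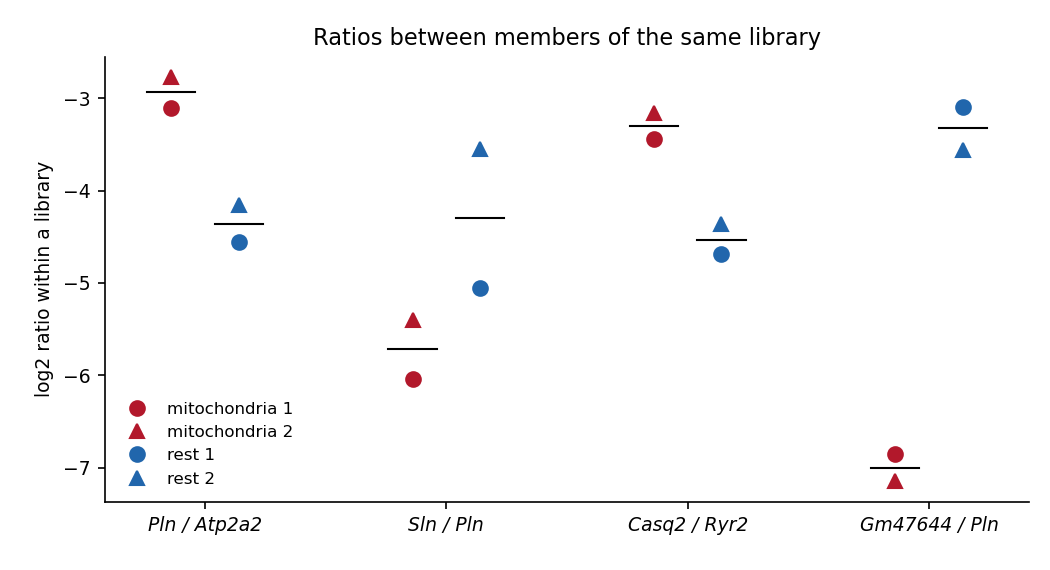
Log2 ratio of 2 members within each library, with circles for replicate 1, triangles for replicate 2 and black lines at the means. Pln relative to Atp2a2 and Casq2 relative to Ryr2 are higher in both mitochondrial libraries, by 1.42 and 1.23, while Gm47644 relative to Pln is lower by -3.67; Sln relative to Pln is spread widely in rest (-5.05 and -3.55).

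The levels of different genes were compared per kilobase (kb) of annotated exon. In mitochondria the order was Atp2a2 (2171 ± 603 normalized counts per kb, SD, n = 2), Hrc (1629 ± 368), Pln (617 ± 74.6), Casq2 (302 ± 57.6), Ryr2 (287 ± 92.4), Trdn (182 ± 30.5), Jph2 (169 ± 57), Slc8a1 (96.1 ± 18.2), Sln (23.9 ± 4.83) and Gm47644 (4.62 ± 1.31). The ranges of neighbours overlapped for Atp2a2 and Hrc, Casq2 and Ryr2, and Trdn and Jph2. In rest the order was Atp2a2 (3791 ± 279), Hrc (822 ± 55.9), Ryr2 (718 ± 104), Pln (408 ± 51.8), Casq2 (326 ± 4.65), Jph2 (131 ± 21.1), Slc8a1 (124 ± 8.46), Trdn (93 ± 14.9), Sln (50.8 ± 39.7) and Gm47644 (41.2 ± 4.44), and Hrc and Ryr2, Jph2 and Slc8a1, and Sln and Gm47644 overlapped. On this scale Ryr2 stood before Pln in rest and after it in mitochondria. The order depends on the length used: per kb of the longest transcript, Ryr2 came before Casq2 in mitochondria (492 ± 158 against 323 ± 61.7) and came before Hrc in rest (1229 ± 178 against 875 ± 59.5). Dividing the whole Pln value by its 974 unshared exon bases, which assumes that no counted read lies in the shared ones, gave 1747 ± 211 in mitochondria and 1157 ± 147 in rest, next after Atp2a2 in both. In mitochondria the Pln range on this scale overlapped those of Atp2a2 and Hrc.

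Among themselves the members also differed between replicates. In mitochondria 1 the value was higher than in mitochondria 2 for all members but Sln, while in rest 5 members were higher in each replicate. Of all 12150 tested genes, 5665 were higher in mitochondria 2 than in mitochondria 1 and 5676 in rest 2 than in rest 1. For Gm47644 the values of 15 and 10 in mitochondria are approximately 4 reads in each library. The widest spread relative to the mean was that of Sln in rest (67 ± 52.3 normalized counts, SD, n = 2).

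A list of 57 other calcium handling genes was examined beside the members, of which 52 were in the table and 49 were tested. On the deposited scale 2 of the 49 were called higher and 2 lower by limma, beside the 2.16% and 1.39% of all tested genes, and the median log2 fold change was 0.06. Both mitochondrial values were above both rest values in 18 of the 49 and below them in 16, beside 27.7% and 33.4% of all tested genes. When libraries were scaled to their totals, 48 were called lower and 0 higher, and with totals without the mitochondrial chromosome 17 and 0. Under these scalings 12022 and 3819 of all 12150 tested genes were called lower.

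In the L-type channel and triad list, 5 of 10 genes were lower at an unadjusted p under 0.05 and 0 higher, beside 16.2% and 14.1% of all tested genes, and the median was -0.6. The difference from all genes was not tested. Cacna1c, the pore of the L-type calcium channel that triggers SR release, had 492 and 383 normalized counts in mitochondria and 1869 and 1356 in rest (log2 fold change -1.87, SE 0.244, adjusted p = 0.0427). Cacnb2, its beta subunit, had 120 and 115 in mitochondria and 312 and 279 in rest (log2 fold change -1.32, SE 0.179, adjusted p = 0.045). The fractions did not overlap for either channel subunit, on the side where Ryr2 also lay.

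Of 13 release channel regulators and channels tested, 1 was called higher as deposited, S100a1, a calcium sensor that binds the ryanodine receptor and SERCA2. It had 984 and 582 normalized counts in mitochondria and 212 and 204 in rest (log2 fold change 1.86, SE 0.292, adjusted p = 0.0499, and -2.12 after scaling to library totals). Itpr2, an IP3 receptor, had 108 and 148 in mitochondria and 403 and 325 in rest (log2 fold change -1.51, SE 0.244, adjusted p = 0.0511), just short of the threshold.

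In the list of protein kinase A and phosphatase control, 1 of 14 genes was called. Hspb6, a small heat shock protein that binds protein phosphatase 1, had 1476 and 1566 normalized counts in mitochondria and 569 and 540 in rest (log2 fold change 1.45 as deposited, SE 0.156, adjusted p = 0.0427, and -2.53 after scaling to library totals). Ppp1ca, a catalytic subunit of protein phosphatase 1, had 395 and 247 in mitochondria and 150 and 146 in rest (log2 fold change 1.07 as deposited, SE 0.276, adjusted p = 0.087, and -2.89 after scaling to library totals).

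No gene was called in the 2 smaller lists. Among 6 tested pumps, exchangers and small SR peptides, 1 was higher and 1 lower at an unadjusted p under 0.05, with a median of -0.09. Strit1, which encodes the DWORF peptide that activates the pump and was named here after its values were seen, had 46 and 41 normalized counts in mitochondria and 14 and 4 in rest (log2 fold change 2.36 as deposited, adjusted p = 0.0896). Among 6 genes of store entry and calcium binding in the endoplasmic reticulum (ER), 1 was higher and 0 lower at that limit, with a median of 0.06. A reference list of mRNAs of other ER resident proteins, 11 of them tested, had a median of 0.35 and no calls, with 1 higher and 0 lower at an unadjusted p under 0.05.

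Among nuclear protein-coding genes, fold changes were lower the longer the transcript. Over 10611 tested nuclear protein-coding genes, Pearson's r between the log2 fold change and log2 of the longest protein-coding transcript was -0.43 (Spearman's rho -0.43), and over the 5243 of these with a mean above 50 normalized counts it was -0.63 (rho -0.6). It was -0.81 over the 49 other calcium handling genes (rho -0.76) and -0.38 over the 9 protein-coding members (rho -0.25). These are descriptions across genes of the same 4 libraries, and genes are not independent replicates. The median log2 fold change was 0.89 for transcripts of up to 1500 bases, 0.12 up to 3000, -0.31 up to 6000, -0.56 up to 12000 and -0.83 above. Ryr2, with a transcript of 16814 bases, and Slc8a1, with 18464 bases, belong to the longest class and Sln, with 1318 bases, to the shortest.

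Set against genes of like length, the members spread to both sides. Trdn (4514 bases) and Jph2 (4211 bases) lay above the upper quartile of their class (0.15), and Hrc (2411 bases) and Pln (2334 bases) above that of theirs (0.58). Atp2a2 (4486 bases) lay below the lower quartile of the class of Trdn (-0.75), Ryr2 below that of the longest class (-1.29), and Sln below that of the shortest (0.37). Casq2 (2556 bases) and Slc8a1 were within the quartiles of their classes. For Pln (0.59, SE 0.193), Jph2 (0.34, SE 0.295), Atp2a2 (-0.83, SE 0.304) and Ryr2 (-1.35, SE 0.322) the distance from the quartile was smaller than the SE. The same holds for Slc8a1 (-0.38, SE 0.208) and the upper quartile of its class (-0.35). The side of the quartile on which these genes lie is thus uncertain. By construction, many genes of every class lie outside its quartiles. The part of length and of fragmentation in the members' values was not tested.

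**Figure D5:**
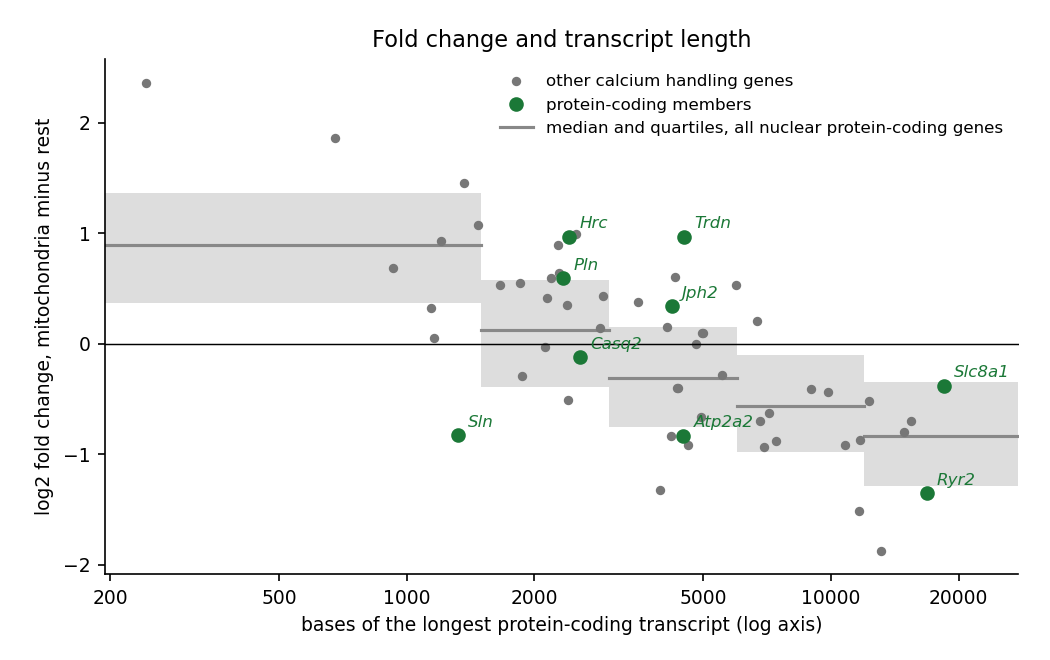
Log2 fold change of mitochondria minus rest, as deposited, against the bases of the longest protein-coding transcript on a log axis, for the 9 protein-coding members (green) and 49 other calcium handling genes (grey points). Grey bands and lines are quartiles and medians of 10611 nuclear protein-coding genes in 5 length classes, falling from a median of 0.89 to -0.83. Trdn and Jph2 lie above and Atp2a2 and Ryr2 below the band of their class, for Jph2, Atp2a2 and Ryr2 by less than the SE.

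The genes with profiles most like 4 members were found among 5556 genes with a mean above 50 normalized counts, by the Euclidean distance of the centred log2 values over the 4 libraries. Those closest to Atp2a2 were Rfx7 (distance 0.0463), Ahctf1 and Tef, and to Ryr2 Atg2b (0.0612), Crtc3 and Syne1. Closest to Pln were Cops8 (0.0243), Cwf19l2 and Paip2b. For Gm47644 they were A330023F24Rik (0.177), a lncRNA gene, Snora21 (0.332) and Gm24497 (0.51), all farther away than the neighbours of the other 3. With 4 libraries many genes share a profile by their fold change alone.

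Markers of other cells moved between the fractions as well. The 6 endothelial markers all had both mitochondrial values below both rest values (median log2 fold change -0.88), and the 5 fibroblast markers all above them as deposited (median 1.02), with no call in either list and with 6 and 1 at an unadjusted p under 0.05. Of all tested genes, 33.4% lay below and 27.7% above in this way, and 16.2% were lower and 14.1% higher at that p. The summed fibroblast values were 8188 and 3440 in mitochondria and 2175 and 3063 in rest. Of the 3 smooth muscle markers in the table Myh11 was called lower (log2 fold change -3.4, adjusted p = 0.0427), beside 1.39% of all tested genes. The 4 red blood cell markers had a median of -2.07 and the 5 macrophage markers 0.89. For the 4 skeletal muscle markers found in the data (of 7) the median was 0.69, but the fractions overlapped in 3 of them. The 11 sarcomere markers of heart muscle cells had a median of 1.38 as deposited, with 2 called higher (Tnnc1 and Myl3), beside 2.16% of all tested genes. These markers ranged from Ttn at -1.47 to Tnnt2 at 1.88. The part of these cell types in the members' values was not tested.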

How the data were processed

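RNA was sequenced from 2 mitochondrial and 2 rest libraries of adult WT mouse hearts. With the tools and versions of the submitters' processing notes, the authors trimmed reads with Trimmomatic 0.39, aligned them to mm10 (GRCm38) with STAR 2.7.10a, counted them over exons per gene with featureCounts 2.0.2, leaving out reads of several genes or regions, and scaled them with DESeq2 1.30.1. The study's methods name the same tools, with other versions of STAR, of the package of featureCounts and of DESeq2. The deposited values are a score in whole numbers: the count divided by a size factor of the library and rounded by the authors, called normalized counts here. They are not counts, so a count test was not used. Rounding and scaling limit low values, and the spacing of values gave the reads behind the mitochondrial libraries.

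The 12150 genes that reached 10 normalized counts in 2 or more libraries were tested on log2 of the value plus 1 with limma 3.58.1 (R 4.3.3), with a mean-variance trend and Benjamini-Hochberg adjustment over all of them. Ratios within a library were compared with a two-sided exact permutation test. The script was tested on simulated data. Positions and sequences came from GENCODE M21, where 15736 of 15746 genes matched, and lengths are those of the longest protein-coding transcript, or of the longest transcript for Gm47644. The members and all gene lists were chosen with earlier results of these data known. Named among other calcium handling genes were those called and the 3 with the largest and 3 with the most negative log2 fold change at a mean above 50; the 3 genes of nearest profile were named for Atp2a2, Pln, Ryr2 and Gm47644, and Myh6, Tnnt2, Nppa and Myl7 as tissue markers. Alternatives were other scalings, filters and pseudocounts, the replicate number as a block and each library left out. No library or column was left out of the main test.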

Additional observations from a re-analysis of the deposited data

How the results depend on the processing

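With 2 libraries a fraction, calls rested on every library: with any of the 4 left out, limma called 0 genes among the members, the other calcium handling genes and the whole table, in either direction, while the remaining lone library was assumed to vary like the other fraction. At an unadjusted p under 0.05, 5 members passed without mitochondria 1 (1896 of all 12150 genes higher and 2706 lower), 4 without mitochondria 2 (2333 and 3324), 2 without rest 1 (590 and 468) and 2 without rest 2 (645 and 549). Over these left-out libraries the ratios changed by 1.22 to 1.63 (Pln to Atp2a2), 1.06 to 1.39 (Casq2 to Ryr2), -2.17 to -0.67 (Sln to Pln) and -3.91 to -3.44 (Gm47644 to Pln) on the log2 scale. Fold changes reversed for Sln without rest 2 (range -1.71 to 0.05), Casq2 and Myh6 without mitochondria 2 (-0.32 to 0.07 and -0.42 to 0.02), Jph2 without mitochondria 1 (-0.01 to 0.69), and Nppa without mitochondria 1 or rest 2 (-1.6 to 0.34).

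Scaling to library totals called 0 members higher and 10 lower, 0 and 48 of the other calcium handling genes and 2 and 12022 of all genes. It reversed Pln (-3.39), Trdn (-3.01), Hrc (-3.02), Jph2 (-3.64), Hspb6 (-2.53), Ppp1ca (-2.89), S100a1 (-2.12), Tnnt2 (-2.11), Cops8 (-3.33), Cwf19l2 (-3.38) and Paip2b (-3.35). Totals without the mitochondrial chromosome called 4 members lower, 0 other calcium handling genes higher and 17 lower, and 129 and 3819 of all genes, and reversed Pln (-0.27), Jph2 (-0.52), Cops8 (-0.26), Cwf19l2 (-0.28) and Paip2b (-0.28). TMM called 4 other calcium handling genes lower, and 443 and 316 of all genes higher and lower. At a mean above 50, where Sln was not tested, 2 members were called higher and 2 lower, and 4 and 7 of the other calcium handling genes. Of all genes with such a mean, 790 and 670 were called, with fewer genes adjusted for. This mean was exceeded by 5556 of the 12150 genes of the main test. Without a filter 1 other calcium handling gene was called higher, and 630 of all genes lower. A pseudocount of 0.1 called 0 genes in each of these sets (6 members and 1694 and 1754 of all genes passed an unadjusted p under 0.05), and 10 called 5 other calcium handling genes lower and 536 and 580 of all genes, and gave -3.03 for the ratio of Gm47644 to Pln.

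Deviations of same-numbered libraries had a Pearson's r of 0.13 over 12150 genes, and the labels do not say that a number marks an animal. With the number as a replicate block, 4 other calcium handling genes were called lower, and 470 and 309 of all genes higher and lower, while Gm47644 remained the only member called. The cause of these changes was not tested. Among the members, depth limits Gm47644, with approximately 4 reads in each mitochondrial library, and Sln, with 7 and 14.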
